A study of Mus musculus with 6 samples.

Results

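The genes examined here encode the machinery that removes introns from nascent transcripts, together with the proteins and kinases that decide which exons are kept. They were chosen by name alone: every row of the count table whose symbol begins with Srsf, Hnrnp, Snrp, U2af, Tra2, Prpf with a digit, or Sf3a or Sf3b with a digit, together with the kinases Clk1, Clk2, Clk3 and Clk4. This gave 74 genes of the 22105 rows with a gene identifier, in a table of 22401 rows. Srsf12, an SR protein gene, had 0 counts in all 6 libraries, which allows at most 3 counts per library, so 73 genes were tested.

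The libraries came from 4T1 cells, a mouse mammary carcinoma line used as a model of triple-negative breast cancer. Control cells received the solvent DMSO, and treated cells received P3FI-90, a small-molecule inhibitor of the histone demethylase KDM3B, at 10 µM; both groups were collected after 24 h and carried no other genetic change or agent in the labels. Each group had 3 libraries of polyadenylated RNA. No label says that the libraries of a group came from separate cultures, so every p-value measures the spread between these libraries, which may be technical.

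Splicing begins when the U1 particle binds the start of an intron and the U2AF dimer binds its end, after which the U2 particle, with its SF3a and SF3b subunits, takes the branch point. A tri-particle of U4, U6 and U5, which holds many of the Prpf proteins, then joins and the catalytic centre forms. SR proteins bind exons and favour their inclusion, hnRNP proteins coat the transcript and often favour skipping, and Clk kinases phosphorylate the arginine-serine domains of the SR proteins. Many of these genes control their own level by including an exon that sends the transcript to nonsense-mediated decay, or by holding introns in the nucleus. Counts per gene do not separate such transcripts from those that encode protein, so the values below are totals over all transcripts of a gene.

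Counts on named genes were 31327094 to 37395732 per library, and the tested splicing genes had between 149 and 52297 counts in a library. The 20 most abundant genes took 7.98% to 8.22% of counts in DMSO and 5.19% to 5.35% after P3FI-90, and the TMM factors, which set libraries on a common scale, were 0.927 to 0.930 and 1.08. All 8 epithelial markers (Epcam, Cdh1, Krt7, Krt8, Krt18, Krt19, Cldn4 and Cldn7) were expressed. The labels name the line but state no markers. All 8 were also lower after P3FI-90, and their summed level was 158549 to 167265 normalized counts in DMSO and 69072 to 72322 after P3FI-90. Of the markers of other cell types, 2 of 8 leukocyte, 2 of 7 fibroblast and 2 of 6 endothelial genes had enough counts to test. Cd3d, Adgre1, Lum, Thy1 and Vwf were at 0 in every library, and the leukocyte list summed to 32.7 to 71.8 normalized counts in DMSO and 136 to 146 after P3FI-90. The fibroblast list, nearly all of it Pdgfra, summed to 1411 to 1450 and 1001 to 1096, and the endothelial list to 12.04 to 29.6 and 36.0 to 57.1. The part of these marker shifts in the results on splicing genes was not tested.

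After 24 h of P3FI-90, transcripts of hnRNP proteins, of the Sm ring and of the Snrp-named U1 and U2 particle proteins were mostly lower. Those of the Clk kinases, the Tra2 proteins and the Prpf proteins were more often higher. Of the 73 genes, 39 were lower, 21 were higher and 13 passed in neither direction (edgeR's quasi-likelihood test, adjusted p under 0.05 over all 12288 genes tested). The share called was 82.2%, against 79.3% of all genes, so a call by itself was the usual state of a gene in this comparison. The direction differed more: 53.4% of the splicing genes were lower, against 39.4% of all genes, and 28.8% were higher, against 39.9%. Among the 52 tested genes that share at most 20% of their 50-base transcript windows with other genes, 24 were lower and 19 higher. Falls of more than 1 on the log2 scale were found for 10 of the 73 (10.6% of all genes) and rises of that size for 2 (12.7% of all genes). The median log2 fold change was -0.25 over the splicing genes and 0.01 over all genes. The median of all genes moves by 0.21 when libraries are scaled to total counts, and the split was then 34 lower and 32 higher. Under that scaling 46.6% of the splicing genes were lower, against 29.6% of all genes. Of the calls, 48.5% of those on splicing genes were higher, against 62.9% of those on all genes. The median of the splicing genes minus that of all genes was -0.27 under both scalings. A change of scaling moves all genes by nearly the same amount, so this difference cannot test the scaling. In bulk RNA, fewer cells of a kind and less RNA per cell cannot be told apart.

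**Figure D1:**
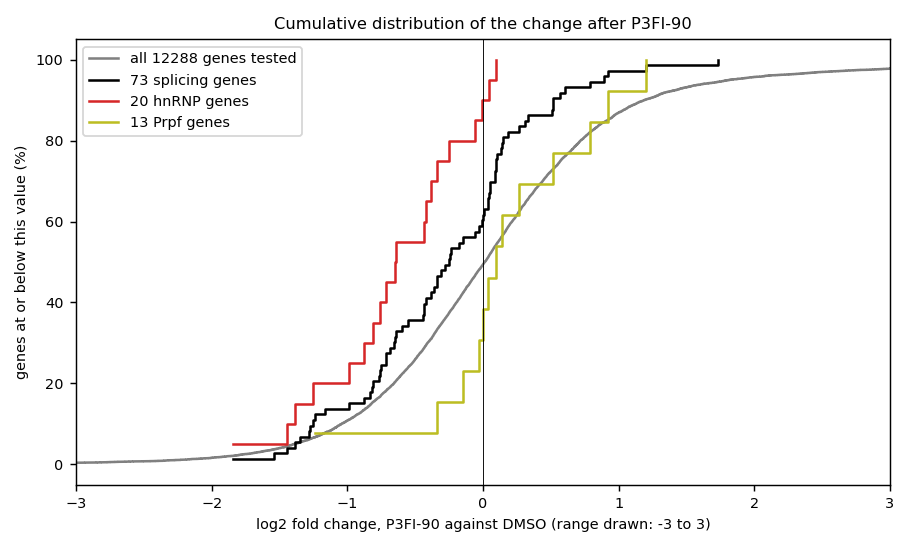
Cumulative share of genes (vertical axis, %) at or below each log2 fold change after P3FI-90 (horizontal axis), for all 12288 genes tested, the 73 splicing genes, the 20 hnRNP genes and the 13 Prpf genes. The hnRNP curve lies to the left of all others above its lowest steps, with a median of -0.65, and the median of the Prpf genes is 0.10.

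The splicing genes together took 2.05% ± 0.0102 of counts in DMSO and 1.84% ± 0.0148 after P3FI-90 (SD, n = 3). Replicates lay close together: the median coefficient of variation of a splicing gene was 3.13% in DMSO and 3.01% after P3FI-90, against 4.73% and 4.28% for all tested genes with at least 100 normalized counts. Most splicing genes lay far above that limit, and the sets were not matched for abundance. For 61 of the 73 genes the libraries of both groups did not overlap, against 81.2% of all genes. The levels below are counts scaled to the TMM-adjusted mean library, called normalized counts, and they compare groups for 1 gene but not genes with each other. Set per kilobase of a representative transcript, the order of the genes also shifted. Hnrnpa2b1 held the highest level per kilobase in both groups (32154 and 19541), whereas Hnrnpa1 passed from place 2 to place 7, Srsf5 from 11 to 29 and Clk4 from 65 to 30.

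**Figure D2:**
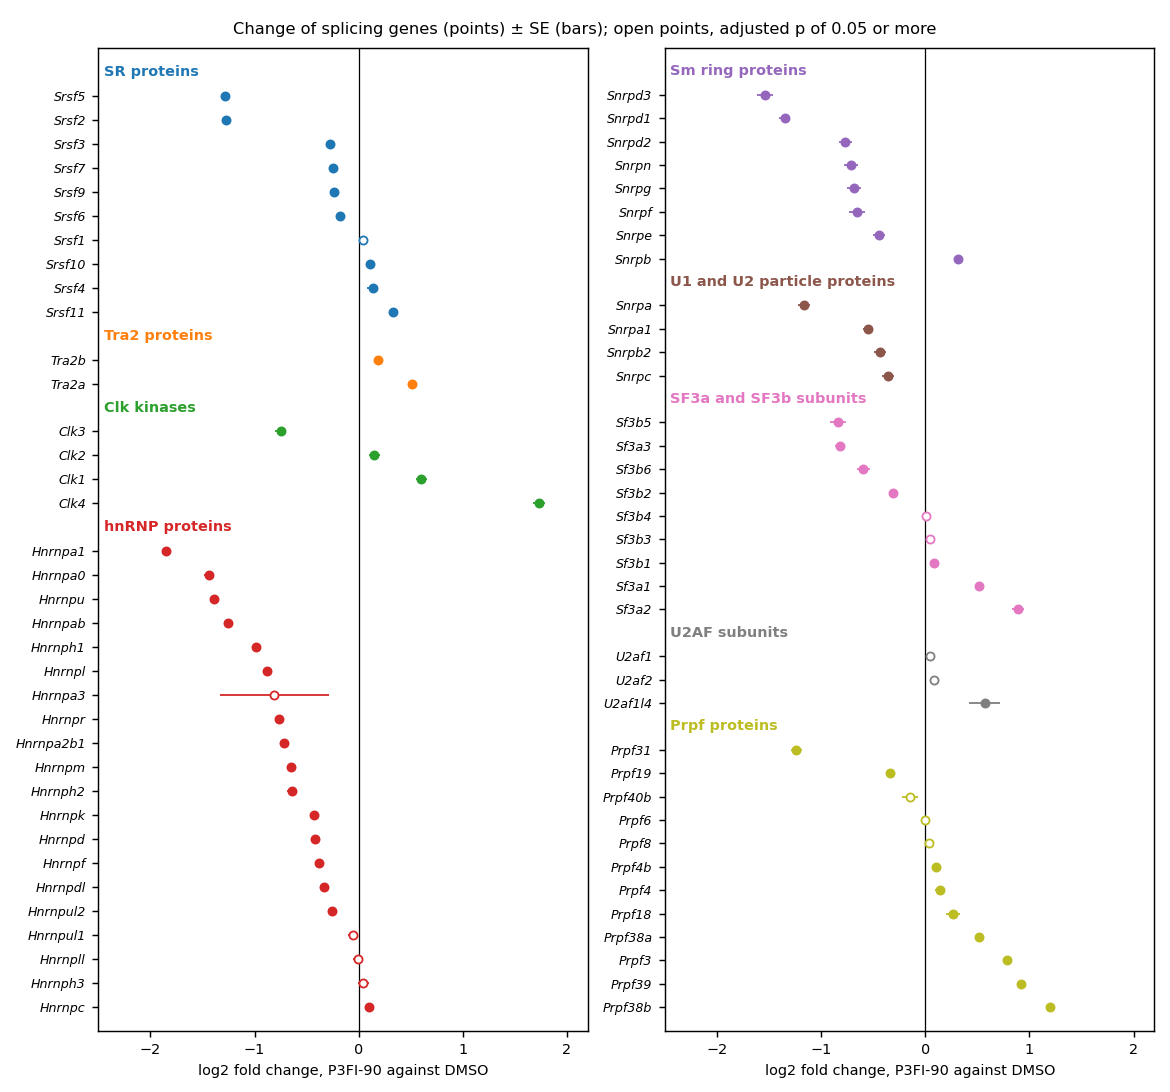
Log2 fold change of 72 of the 73 tested genes after P3FI-90 against DMSO (horizontal axis), with the SE as a bar, grouped by role; n = 3 libraries per group. Filled points passed an adjusted p of 0.05 and open points did not. Hnrnpa1 lies lowest at -1.85, Clk4 highest at 1.73, and Hnrnpa3 has by far the longest bar.

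Most hnRNP genes fell. Of 20 tested, 15 were lower (75%, against 39.4% of all genes), 1 was higher and 4 passed in neither direction, with a median of -0.65. Their summed level was 59.1% of that in DMSO, where that of all genes was 86.2%, and their share of all counts went from 1.07% ± 0.00791 to 0.731% ± 0.0101. The 86.2% over all genes, also given below, is set by the TMM factors and does not measure a change of total RNA. Under total-count scaling 14 hnRNP genes were lower and 4 were higher, where 29.6% of all genes were lower. The median of the hnRNP genes minus that of all genes was -0.66 under both scalings, a difference that a change of scaling cannot alter and so does not test. Hnrnpa1, which binds exonic and intronic silencers and is among the most abundant nuclear RNA-binding proteins, had 49336, 49811 and 48956 normalized counts in DMSO and 13823, 13158 and 14194 after P3FI-90. Its mean after treatment was 27.8% of that in DMSO, far outside the spread of either group (log2 fold change -1.85, SE 0.032, adjusted p = 7.29e-15).

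Hnrnpa0, a relative of Hnrnpa1, had 12255, 11306 and 12483 in DMSO and 4608, 4243 and 4415 after P3FI-90 (log2 fold change -1.44, SE 0.044, adjusted p = 1.54e-12). Hnrnpu, which binds RNA and the nuclear scaffold, had 39388, 39504 and 39434 in DMSO and 15190, 14856 and 15108 after P3FI-90. The 3 control libraries of Hnrnpu differed by less than the treated ones, and its log2 fold change was -1.39 (SE 0.027, adjusted p = 2.19e-14). Hnrnpa2b1, the most abundant member, had 52511, 52122 and 53374 in DMSO and 32349, 29638 and 34036 after P3FI-90. Its log2 fold change was -0.72 (SE 0.040, adjusted p = 7.57e-10), and the ratio of Hnrnpa2b1 to Hnrnpa1 counts within a library went from 1.07 ± 0.0220 to 2.33 ± 0.0733 (SD, n = 3). Hnrnpa1 made up 12.3% ± 0.0523 of all hnRNP counts in DMSO and 5.76% ± 0.158 after P3FI-90.

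Hnrnpc, which packages long transcripts and binds uridine tracts, was the only hnRNP gene called higher. It had 19244, 20102 and 19467 normalized counts in DMSO and 20426, 21493 and 20964 after P3FI-90. These groups did not overlap, but the difference was small (log2 fold change 0.10, SE 0.031, adjusted p = 0.0115), and the call was lost with upper-quartile scaling, with the length and GC trend removed, and without DMSO replicate 1 or P3FI-90 replicate 2. The ratio of Hnrnpc to Hnrnpa1 was 0.397 ± 0.00678 in DMSO and 1.53 ± 0.0902 after P3FI-90, which needs no scaling between libraries.

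The other hnRNP genes called lower, named here after their values were seen, ran from -1.26 for Hnrnpab (SE 0.035) through Hnrnph1, Hnrnpl, Hnrnpr, Hnrnpm, Hnrnph2, Hnrnpk, Hnrnpd, Hnrnpf and Hnrnpdl to -0.25 for Hnrnpul2 (SE 0.040). Hnrnph1 and Hnrnph2, close relatives that bind runs of guanine, had log2 fold changes of -0.99 and -0.65, and the ratio of their counts went from 6.86 ± 0.306 to 5.40 ± 0.124. Hnrnpul1, Hnrnpll and Hnrnph3 lay at -0.06, -0.01 and 0.04 and did not pass.

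Hnrnpa3 was unlike every other gene of the set. It had 1705, 6749 and 1374 normalized counts in DMSO and 616, 2371 and 2578 after P3FI-90, so both groups spread widely and overlapped. Its coefficient of variation was 92.0% in DMSO and 58.1% after P3FI-90, whereas no other splicing gene exceeded 9.69% and 14.4%. The log2 fold change was -0.81 (SE 0.52, adjusted p = 0.168), and it was 0.26 without DMSO replicate 2. In the transcript annotation, 97.7% of the 50-base windows of Hnrnpa3 also occur in transcripts of other genes, so the counting of its reads is uncertain.

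SR proteins, which recognise exonic enhancers and help recruit the early particles, split into a pair that fell steeply and a larger number that moved little. Of 10 tested, 6 were lower, 3 were higher and 1 passed in neither direction (60% lower and 30% higher, against 39.4% and 39.9% of all genes), with a median of -0.20. Under total-count scaling only 2 were lower and 4 were higher, where 29.6% of all genes were lower. Srsf2 had 17254, 17361 and 17727 normalized counts in DMSO and 7132, 7221 and 7277 after P3FI-90 (log2 fold change -1.27, SE 0.031, adjusted p = 1.62e-13). Srsf5 had 11116, 11297 and 11504 in DMSO and 4606, 4625 and 4704 after P3FI-90 (log2 fold change -1.28, SE 0.033, adjusted p = 2.69e-13). For both genes every treated library lay below every control library, with a gap many times the spread within a group. Exons of Srsf2 overlap those of Mettl23 and Mfsd11 on the opposite strand, and the strand setting of the counting is not given in the sources used here.

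Srsf3 and Srsf7, which also act as adaptors for mRNA export, were lower by small amounts, with log2 fold changes of -0.28 (SE 0.035) and -0.25 (SE 0.035). Srsf9 and Srsf6 followed at -0.23 (SE 0.044) and -0.18 (SE 0.033). These 4 falls did not pass under total-count scaling, where Srsf6 lay at 0.04. Srsf1, the founding member of the family and the one with the most counts, had 21858, 22838 and 22416 in DMSO and 23160, 22242 and 23560 after P3FI-90. The groups overlapped, and the log2 fold change of 0.04 (SE 0.031) did not pass (adjusted p = 0.265). Once the trend of fold changes with transcript length and GC content was removed, Srsf1 lay at -0.26 and was called lower.

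Srsf11 was the SR gene with the clearest rise. It had 10417, 10482 and 10370 normalized counts in DMSO and 13276, 12672 and 13392 after P3FI-90, without overlap (log2 fold change 0.33, SE 0.033, adjusted p = 3.57e-07). Srsf10, which represses splicing when it is dephosphorylated, and Srsf4 had log2 fold changes of 0.10 (SE 0.034, adjusted p = 0.0118) and 0.13 (SE 0.051, adjusted p = 0.0264). The libraries of Srsf4 overlapped between groups, and 65.4% of its windows are shared with other genes. Without DMSO replicate 3 or without P3FI-90 replicate 1, neither of these small rises passed, which left 1 SR gene higher.

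The summed level of the SR genes was 83.8% of that in DMSO, against 86.2% for all genes, and their share of all counts was 0.330% ± 0.00402 in DMSO and 0.321% ± 0.00556 after P3FI-90. Within that sum, Srsf2 went from 14.0% ± 0.176 to 6.90% ± 0.147 of SR counts and Srsf5 from 9.06% ± 0.109 to 4.44% ± 0.0775, whereas Srsf1 went from 17.9% ± 0.214 to 22.0% ± 0.328 and Srsf11 from 8.35% ± 0.0871 to 12.5% ± 0.171. Within a library, the ratio of Srsf1 to Srsf2 was 1.28 ± 0.0288 in DMSO and 3.19 ± 0.0938 after P3FI-90. That of Srsf11 to Srsf5 was 0.922 ± 0.0185 and 2.82 ± 0.0741.

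Tra2a and Tra2b, SR-like activators of exons rich in purines, were both higher. Tra2a had 6265, 7012 and 7057 normalized counts in DMSO and 9941, 9340 and 9776 after P3FI-90 (log2 fold change 0.52, SE 0.046, adjusted p = 1.16e-07). Tra2b had 11783, 12423 and 11798 in DMSO and 13817, 13282 and 13812 after P3FI-90 (log2 fold change 0.18, SE 0.034, adjusted p = 0.000183). Neither gene's groups overlapped, but the smaller rise of Tra2b did not pass once the trend of fold changes with transcript length and GC content was removed.

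The 4 Clk kinases moved apart. Clk4 rose most of all splicing genes: it had 1592, 1899 and 1851 normalized counts in DMSO and 5904, 5825 and 6036 after P3FI-90. The lowest treated library was above any control library by a wide margin, and the level was 3.33-fold higher (log2 fold change 1.73, SE 0.057, adjusted p = 3.07e-12). Clk1, which like Clk4 is known for transcripts that keep introns and stay in the nucleus, had 3414, 3912 and 3423 in DMSO and 5563, 5572 and 5169 after P3FI-90 (log2 fold change 0.60, SE 0.052, adjusted p = 9.48e-08).

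Clk3 went the other way, with 2568, 2604 and 2596 normalized counts in DMSO and 1461, 1606 and 1549 after P3FI-90 (log2 fold change -0.75, SE 0.051, adjusted p = 6.12e-09). Its exons overlap those of Edc3 on the opposite strand. Clk2 had 2240, 2338 and 2353 in DMSO and 2466, 2670 and 2553 after P3FI-90, a rise of 0.15 (SE 0.050, adjusted p = 0.0135) that did not pass under upper-quartile scaling or without P3FI-90 replicate 2. Clk4 made up 17.3% ± 0.988 of Clk counts in DMSO and 38.3% ± 1.14 after P3FI-90, while Clk3 went from 25.3% ± 0.983 to 9.95% ± 0.405. The ratio of Clk4 to Clk3 within a library rose 5.61-fold, from 0.687 ± 0.0591 to 3.86 ± 0.211, the widest shift among the 16 ratios computed.

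**Figure D3:**
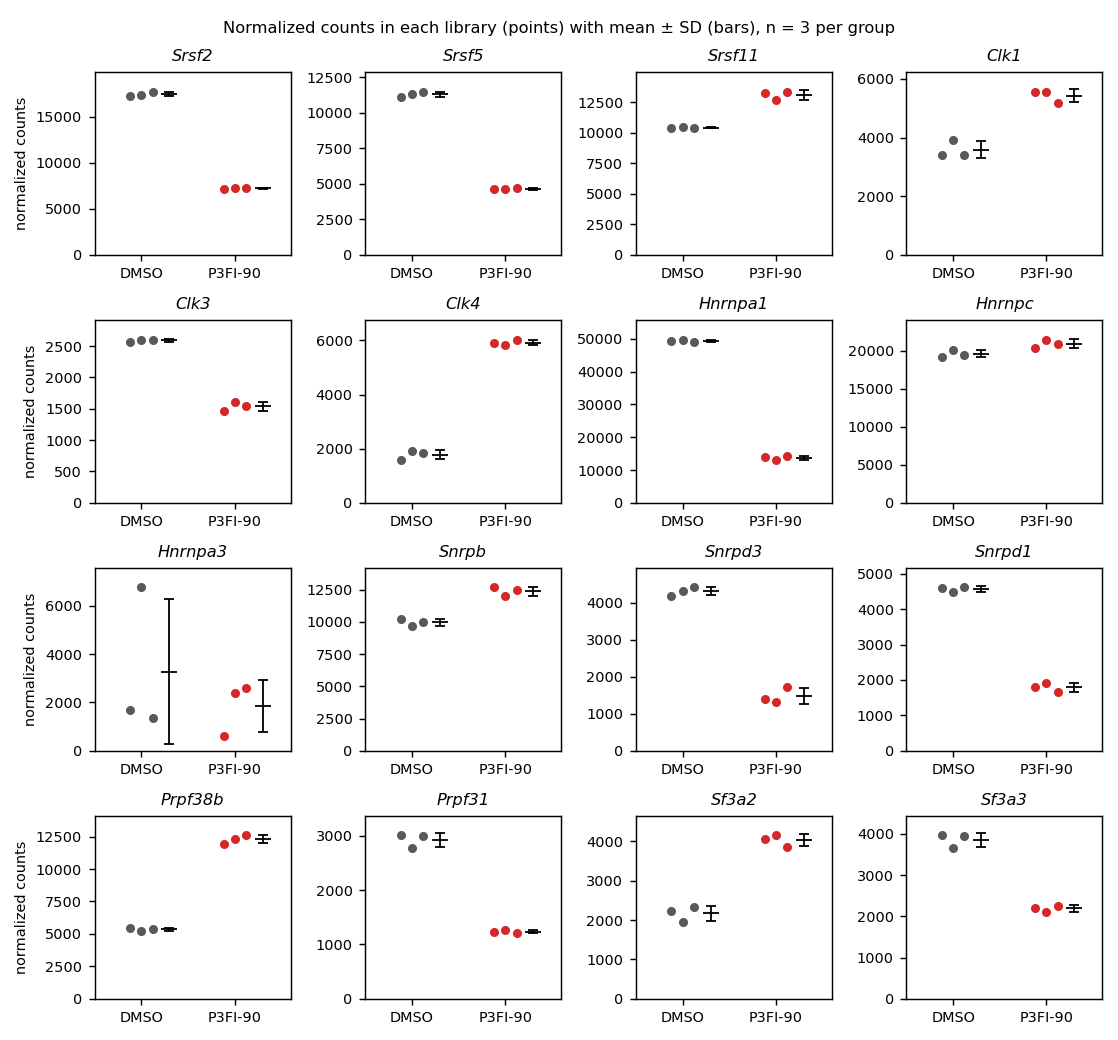
Normalized counts (vertical axes, each starting at 0) of 16 splicing genes in each of the 3 DMSO and 3 P3FI-90 libraries (points), with the mean and SD as bars. Hnrnpa1, Srsf2, Srsf5 and Snrpd3 drop in all 3 treated libraries, Clk4 and Prpf38b rise in all 3, and Hnrnpa3 scatters in both groups.

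The Sm proteins, which form a ring around the RNA of most spliceosomal particles, were lower in 7 of 8 cases (87.5%, against 39.4% of all genes), with a median of -0.70. Snrpd3 had 4198, 4332 and 4415 normalized counts in DMSO and 1412, 1316 and 1725 after P3FI-90 (log2 fold change -1.54, SE 0.078, adjusted p = 2.42e-10). Snrpd1 had 4606, 4475 and 4613 in DMSO and 1805, 1902 and 1664 after P3FI-90 (log2 fold change -1.35, SE 0.052, adjusted p = 1.31e-11). Snrpd2 had 2626, 2839 and 2892 and then 1757, 1513 and 1636 (log2 fold change -0.77, SE 0.062, adjusted p = 3.83e-08). In none of the 3 D proteins did the groups overlap.

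Snrpb, which encodes the B proteins of the same ring, was the exception. It had 10260, 9716 and 9956 normalized counts in DMSO and 12670, 11991 and 12507 after P3FI-90, again without overlap (log2 fold change 0.31, SE 0.035, adjusted p = 1.35e-06). Snrpn, its imprinted relative, lay at -0.71 (SE 0.071), and its exons overlap those of Snurf on the same strand. Snrpb held 32.7% ± 0.532 of Sm counts in DMSO and 53.5% ± 0.812 after P3FI-90. Its ratio to Snrpd3 went from 2.31 ± 0.113 to 8.44 ± 1.04 and its ratio to Snrpd1 from 2.19 ± 0.0368 to 6.95 ± 0.608. The B and D3 proteins are known to pair before they enter the ring. The remaining Sm genes, named after their values were seen, were Snrpg (-0.69), Snrpf (-0.65) and Snrpe (-0.45). The call of Snrpe was lost with the length and GC trend removed, and 89.5% of the windows of Snrpf are shared with other genes.

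All 4 Snrp genes for proteins particular to the U1 or U2 particle were lower (39.4% of all genes were). Their summed level was 65.3% of that in DMSO, against 86.2% for all genes. The SF3a and SF3b subunits of the U2 particle are taken separately below and did not share a direction. Snrpa, which binds a loop of the U1 RNA, had 4554, 4320 and 4420 normalized counts in DMSO and 2030, 2113 and 1780 after P3FI-90 (log2 fold change -1.17, SE 0.058, adjusted p = 2.31e-10). Snrpc, which helps U1 hold the start of the intron, lay at -0.36 (SE 0.060, adjusted p = 7.52e-05). The U2 partners Snrpa1 and Snrpb2 lay at -0.55 (SE 0.042, adjusted p = 2.14e-08) and -0.43 (SE 0.056, adjusted p = 5.88e-06). Groups overlapped for none of them, and the fall of Snrpc was lost, at 0.03, once the length and GC trend was removed.

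The SF3a and SF3b subunits, which carry the U2 particle to the branch point, did not share a direction: 4 of 9 were lower, 3 were higher and 2 passed in neither direction (39.4% and 39.9% of all genes were lower and higher). Their summed level was 99.9% of that in DMSO, against 86.2% for all genes, and their share of counts went from 0.201% ± 0.0015 to 0.233% ± 0.00265. Within the SF3a trimer, Sf3a2 had 2221, 1961 and 2331 normalized counts in DMSO and 4068, 4153 and 3861 after P3FI-90 (log2 fold change 0.89, SE 0.060, adjusted p = 5.31e-09). Its partner Sf3a3 had 3963, 3659 and 3958 and then 2205, 2109 and 2263 (log2 fold change -0.82, SE 0.049, adjusted p = 1.62e-09). In normalized counts per kilobase of transcript, the mean level was 981 for Sf3a2 and 2121 for Sf3a3 in DMSO and 1820 and 1205 after P3FI-90, and the ratio of their counts went from 0.562 ± 0.0266 to 1.84 ± 0.131. The third subunit, Sf3a1, had 5928, 5517 and 6023 and then 8362, 8372 and 8178 (log2 fold change 0.51, SE 0.038, adjusted p = 1.84e-08). Exons of Sf3a2 overlap those of Plekhj1 on the opposite strand.

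In SF3b, 3 subunits were lower. Sf3b5 had 1519, 1339 and 1604 normalized counts in DMSO and 854, 879 and 769 after P3FI-90 (log2 fold change -0.83, SE 0.077, adjusted p = 1.78e-07), and Sf3b6, which touches the branch point adenosine, lay at -0.60 (SE 0.064, adjusted p = 9.79e-07). Sf3b2, named after its values were seen, lay at -0.31 (SE 0.034, adjusted p = 1.09e-06), and Sf3b4, also named after its values were seen, at 0.01 (SE 0.042, adjusted p = 0.88) with overlapping groups. The large scaffold Sf3b1 had 19348, 19767 and 19081 in DMSO and 20500, 20772 and 20560 after P3FI-90 (log2 fold change 0.09, SE 0.029, adjusted p = 0.0121). That rise was lost with upper-quartile scaling and without DMSO replicate 3, and with the length and GC trend removed the value was -0.26. Sf3b3, the subunit with the most counts, lay at 0.05 (SE 0.031, adjusted p = 0.168) with overlapping groups. In the fit with the length and GC trend removed, Sf3b3 lay at -0.11, and Sf3b1 and Sf3b3 were both called lower.

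The U2AF dimer moved little. U2af2, which reads the pyrimidine tract, had 11767, 10855 and 11914 normalized counts in DMSO and 12034, 12552 and 12082 after P3FI-90 (log2 fold change 0.09, SE 0.039, adjusted p = 0.0552). It just missed the threshold here and passed in 8 of 16 alternative settings. U2af1, which reads the end of the intron, had 4396, 4374 and 4290 and then 4670, 4454 and 4384 (log2 fold change 0.05, SE 0.037, adjusted p = 0.245). The ratio of U2af2 to U2af1 was 2.65 ± 0.150 in DMSO and 2.72 ± 0.125 after P3FI-90, less apart than the replicates. U2af1l4, a scarce relative of U2af1, had 180, 179 and 157 and then 241, 296 and 228 (log2 fold change 0.57, SE 0.15, adjusted p = 0.00341), but 97.2% of its windows are shared with other genes, including Gm49396, which the table counts separately.

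**Figure D4:**
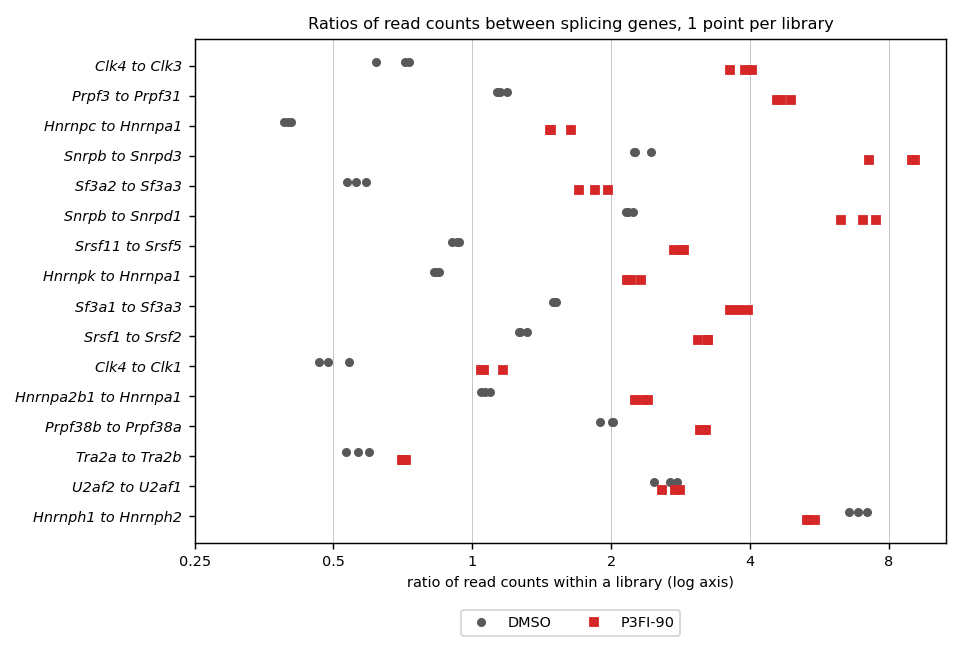
Ratio of read counts of gene pairs within each library (horizontal axis, log scale), 1 point per library, DMSO as circles and P3FI-90 as squares. The groups overlap only for U2af2 to U2af1, and the ratio of Hnrnph1 to Hnrnph2 is the only one that is lower after P3FI-90.

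Prpf genes were more often higher: 7 of 13 were higher (53.8%, against 39.9% of all genes), 2 were lower and 4 passed in neither direction, with a median of 0.10. With the length and GC trend removed, 5 were higher and 5 were lower, where 39.3% of all genes were lower. Prpf38b, related to a factor that enters with the tri-particle, had 5425, 5215 and 5411 normalized counts in DMSO and 11970, 12309 and 12592 after P3FI-90, 2.30-fold higher (log2 fold change 1.20, SE 0.035, adjusted p = 8.94e-13). Prpf39, which associates with the U1 particle, had 3119, 3230 and 3388 and then 6298, 5940 and 6189 (log2 fold change 0.92, SE 0.041, adjusted p = 5.98e-11). Both genes had every treated library above every control one.

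Prpf3 and Prpf31, which sit together on the U4 and U6 particle and are both mutated in inherited retinal degeneration, moved in opposite directions. Prpf3 had 3409, 3290 and 3428 normalized counts in DMSO and 6020, 5790 and 5681 after P3FI-90 (log2 fold change 0.79, SE 0.037, adjusted p = 1.28e-10). Prpf31 had 3007, 2766 and 2990 and then 1226, 1268 and 1216 (log2 fold change -1.24, SE 0.052, adjusted p = 3.74e-11). Their ratio was 1.16 ± 0.0291 in DMSO and 4.72 ± 0.177 after P3FI-90. Prpf19, a ubiquitin ligase of the complex that activates the spliceosome, lay at -0.34 (SE 0.035, adjusted p = 5.36e-07). Prpf8, the large protein at the catalytic centre, had 24354, 23204 and 24859 and then 24423, 25110 and 24705, which overlapped (log2 fold change 0.04, SE 0.031, adjusted p = 0.309). Once the length and GC trend was removed, Prpf8 lay at -0.27 and was called lower. The other Prpf genes called, named after their values were seen, were Prpf38a (0.52), Prpf18 (0.27), Prpf4 (0.14) and Prpf4b (0.10). The call of Prpf4 was lost with upper-quartile scaling and without DMSO replicate 3, P3FI-90 replicate 2 or P3FI-90 replicate 3, and that of Prpf4b with upper-quartile scaling and without DMSO replicate 1, DMSO replicate 3 or P3FI-90 replicate 3. With the length and GC trend removed both changed sign, Prpf4 to -0.10, which did not pass the test, and Prpf4b to -0.35, which did.

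Read sharing and overlap bore on some of these genes. Of the 74 genes, 21 had more than 20% of their 50-base windows in common with transcripts of other genes, among them Hnrnpa1 (46.4%), Srsf2 (38.6%), Snrpa (31.5%) and Srsf5 (28.6%), and 17 overlapped exons of another gene in the table, among them Hnrnpu with Cox20, Snrpd3 with Gucd1 and Prpf39 with Fkbp3, each on the opposite strand. Among the 52 tested genes with at most 20% of windows shared, 24 were lower and 19 were higher, a more even split than the 39 and 21 of all 73. Over all genes, whose shared windows were not counted, 39.4% were lower and 39.9% were higher. The split among the 52 genes lay nearer to these shares than that of all 73. Called genes also differed in length: the median representative transcript was 2498 bases for the splicing genes called higher and 2225 for those called lower, against 3313.5 and 2454.5 bases over all genes. The part of transcript length in the calls was examined only through the fit with that trend removed, where 42 splicing genes were lower and 18 were higher. In that fit 57.5% of the splicing genes were lower, against 39.3% of all genes.

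Upstream sequences are shown for the 2 genes with the largest falls and the 2 with the largest rises whose 250 bases before the start site hold no annotated exon. The RefSeq promoter table (GRCm38.p6) matched 64 of the 74 genes, with 85 start sites, and 24 of those upstream windows were free of exons. Each sequence reads along the direction of transcription, and capitals mark matches on either strand to the CCAAT box (CCAAT), the GC box (GGGCGG) or the cyclic AMP response element (TGACGTCA). Hnrnpa1 lies at chr15:103240147-103240396 on the plus strand, and Hnrnpa0 at chr13:58128557-58128806, Prpf38b at chr3:108911730-108911979 and Tra2a at chr6:49264053-49264302 on the minus strand.
Hnrnpa1: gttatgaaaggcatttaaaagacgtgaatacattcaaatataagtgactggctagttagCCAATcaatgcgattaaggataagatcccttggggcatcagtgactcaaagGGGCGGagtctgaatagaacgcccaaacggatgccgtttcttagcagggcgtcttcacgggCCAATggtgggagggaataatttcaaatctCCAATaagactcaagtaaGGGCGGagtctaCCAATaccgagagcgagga
Hnrnpa0: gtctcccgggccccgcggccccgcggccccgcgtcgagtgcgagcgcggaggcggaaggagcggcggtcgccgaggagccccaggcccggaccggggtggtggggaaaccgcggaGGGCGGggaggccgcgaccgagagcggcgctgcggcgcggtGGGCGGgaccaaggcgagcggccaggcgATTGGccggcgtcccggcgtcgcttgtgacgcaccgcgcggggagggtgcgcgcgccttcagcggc
Prpf38b: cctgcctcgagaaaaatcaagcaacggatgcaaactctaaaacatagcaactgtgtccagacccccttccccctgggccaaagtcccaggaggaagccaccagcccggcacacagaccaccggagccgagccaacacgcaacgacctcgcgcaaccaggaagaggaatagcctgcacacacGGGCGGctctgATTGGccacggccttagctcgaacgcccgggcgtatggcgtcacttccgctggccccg
Tra2a: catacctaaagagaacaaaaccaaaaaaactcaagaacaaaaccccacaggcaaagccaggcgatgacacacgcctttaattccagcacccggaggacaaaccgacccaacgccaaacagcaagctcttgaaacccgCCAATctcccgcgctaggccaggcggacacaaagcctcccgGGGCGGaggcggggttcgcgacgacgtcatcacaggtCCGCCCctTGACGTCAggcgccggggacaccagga

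All 4 windows held a CCAAT box and a GC box, whichever way the gene moved. Hnrnpa1 holds CCAAT matches at several places, and Tra2a is the only one of the 4 with a cyclic AMP response element. Over all 85 windows of splicing genes, 45.9% held CCAAT, 64.7% held GGGCGG, 27.1% held the ETS core (CCGGAAG), 10.6% the E-box (CACGTG) and 4.71% the cyclic AMP response element. In the 32851 windows of the same length in the table, the shares were 33.8%, 32.7%, 6.91%, 6.02% and 1.55%. By direction, CCAAT was found in 27.3% of the 22 windows of genes called higher and 49.0% of the 51 windows of genes called lower, and GGGCGG in 77.3% and 56.9%. Of the 11 windows of genes called in neither direction, 72.7% held CCAAT and 72.7% held GGGCGG. Some genes gave more than 1 window, and windows of 1 gene may overlap, so genes do not weigh equally in these shares. The shares are descriptions of letters and not of bound factors.

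The rest of the splicing apparatus was taken from lists of genes outside the name pattern, and its difference from the genes above was not tested. Of 55 core spliceosome genes, 24 were higher and 22 were lower (43.6% and 40%, against 39.9% and 39.4% of all genes), with a median of -0.04. Smndc1, which acts in assembly of the spliceosome, rose by 1.16 on the log2 scale (SE 0.044, adjusted p = 1.25e-11), while Isy1, of the activating complex, lay at -1.09 (SE 0.048, adjusted p = 5.51e-11) and Lsm6, of the ring on U6 RNA, at -1.19 (SE 0.053, adjusted p = 6.01e-11). Of 35 tested splicing regulators of 40 listed, 14 were higher and 16 were lower (40% and 45.7%), with a median of -0.07. The paraspeckle partners Sfpq and Nono lay at -1.28 (SE 0.031, adjusted p = 1.63e-13) and -0.90 (SE 0.029, adjusted p = 2.85e-12), and Qki, which binds introns near exons, at 1.08 (SE 0.039, adjusted p = 7.90e-12).

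Kinases of SR proteins other than Clk were higher in 5 and lower in 2 of 9 tested cases of 10 listed (55.6% and 22.2%, against 39.9% and 39.4% of all genes). Dyrk1a had 1853, 1864 and 2005 normalized counts in DMSO and 3821, 3886 and 3903 after P3FI-90 (log2 fold change 1.02, SE 0.047, adjusted p = 9.53e-11), Srpk2 rose by 0.67 (SE 0.060, adjusted p = 1.23e-07), and Dyrk3 lay at -1.05 (SE 0.078, adjusted p = 1.53e-08). Genes listed under Sm ring assembly were lower in 10 and higher in 5 of 16 cases (62.5% and 31.3%), with a median of -0.29. The list also holds genes of other steps of particle maturation, such as Coil, Phax, Snupn and Tgs1. Clns1a, which holds Sm proteins before assembly, lay at -0.80 (SE 0.041, adjusted p = 3.42e-10), whereas Ddx20, a helicase of the SMN complex, and Tgs1, which modifies the cap of the particle's RNA, rose by 0.73 (SE 0.043, adjusted p = 1.22e-09) and 0.80 (SE 0.056, adjusted p = 7.94e-09).

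All 15 genes of the exon junction complex and of nonsense-mediated decay were called (79.3% of all genes were), 10 higher and 5 lower (66.7% and 33.3%, against 39.9% and 39.4% of all genes), with a median of 0.38. Upf2 rose by 0.98 (SE 0.046, adjusted p = 1.28e-10) and Smg1, the kinase of the decay pathway, by 0.72 (SE 0.040, adjusted p = 7.62e-10), though the value of Smg1 was -0.01 with the length and GC trend removed. Magoh, a core protein of the junction complex, lay at -0.98 (SE 0.056, adjusted p = 9.01e-10). Decay removes transcripts with the early stop codons that many SR and hnRNP genes can include, and these counts cannot show which transcripts were present.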

How the data were processed

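Total RNA from the 6 libraries (3 DMSO, 3 P3FI-90) was sequenced as polyadenylated mRNA, and the authors deposited 1 table of raw read counts per gene with no normalization. The submitters' processing notes name CASAVA, HISAT2 and StringTie and the build GRCm39. The counting step, its strand setting and the tool versions are not given in the sources used here. Rows without a gene identifier (296 of 22401, mostly assembled transcripts, 0.483% to 0.556% of counts) were left out.

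Counts were fitted with edgeR 4.0.16 in R 4.3.3 (TMM, filterByExpr, quasi-likelihood test, treatment as the only term, Benjamini-Hochberg over 12288 genes), where the study used limma. The common biological coefficient of variation was 0.0648. Counts were also simulated with 200 of 12288 genes changed, as many up as down and none by a small amount. Of these, 199 were recovered, and 3.40% of calls were false. In the data 79.3% of genes were called and many changes were small. The simulation therefore does not give the error rate of the calls reported here. DESeq2 1.42.0 and limma 3.58.1 served as alternatives. With 3 libraries against 3, an exact permutation test cannot give a p under 0.1, so none is reported for single genes. Libraries of a group differed by more than sampling noise (chi-square per gene of 5.47 to 8.50, against 351 to 394 between groups), so none was counted as a copy.

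Transcript lengths (12263 of the genes tested), GC content and shared 50-base windows came from GENCODE M21, and promoters from RefSeq, both on GRCm38, so no coordinate of the count table is printed. The members and lists were chosen with earlier results of these data known. Named in full were, per role, the 3 largest rises and falls past the threshold with at least 100 normalized counts and no overlap, the gene with the most counts, all members of roles with at most 4 genes, all SR proteins, and the 3 smallest p-values of each list. Of the set, 1 gene is counted in the totals but not reported here by name.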

Additional observations from a re-analysis of the deposited data

How the results depend on the processing

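Over 16 alternatives, 45 of the 73 splicing genes (32 lower, 13 higher) held their direction and their side of the threshold, and the number lower lay between 34 and 42. Under total-count scaling, 32 splicing genes were higher, the median was -0.0391, 1 SR kinase outside Clk and 3 junction and decay genes were lower, 2 SR proteins were lower, and 5 SF3 subunits, 4 hnRNP genes and 3 U2AF genes were higher. Of the calls on splicing genes, 48.5% were then higher, against 35.0% as reported. Of the calls on all genes, 62.9% were then higher, against 50.3% as reported. Under that scaling the values of Hnrnpll (0.20), Hnrnpul1 (0.16), Prpf40b (0.0689), Prpf6 (0.21) and Srsf6 (0.0392) changed sign. Upper-quartile scaling gave 14 higher and 40 lower (54.8% lower, against 41.3% of all genes). It left 1 SR gene and 0 hnRNP genes higher, and changed the sign of Prpf8 (-0.0028) and Sf3b4 (-0.0314). With the trend on length and GC content removed, 18 were higher and 42 lower (57.5% lower, against 39.3% of all genes), with a median of -0.30. The sign then changed for Prpf4 (-0.10), Prpf4b (-0.35), Prpf6 (0.0232), Prpf8 (-0.27), Sf3b1 (-0.26), Sf3b3 (-0.11), Smg1 (-0.0142), Snrpc (0.0262), Srsf1 (-0.26), Srsf10 (-0.0559) and Srsf9 (0.043). Of these, Prpf4b, Prpf8, Sf3b1, Sf3b3 and Srsf1 were called lower in that fit. Leaving out 1 library gave 17 to 20 higher and 39 lower, with medians from -0.29 to -0.24. In each of these fits 53.4% of the splicing genes were lower, against 37.5% to 38.2% of all genes. Leaving out 1 library changed the sign of Hnrnpa3 (-1.19 to 0.26, the highest without DMSO replicate 2), Sf3b4 (-0.0431 without DMSO replicate 2 to 0.0302), Hnrnpll (-0.0485 to 0.0077, above 0 without DMSO replicate 3 and, at 0.0041, without P3FI-90 replicate 2) and Prpf6 (-0.0247 to 0.0095, the highest without P3FI-90 replicate 1). With at least 10 counts in every library, Hnrnpll was 0.0079 and Prpf6 0.016, and DESeq2 and its size factors gave Prpf6 0.0073. The causes of these changes were not tested.

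Replicates of the same number did not deviate together (correlations -0.02, 0.02 and 0.0049), so the numbers do not pair the libraries. The fit with the replicate number as a block gave 21 splicing genes higher and 39 lower, with a median of -0.25, and changed no call among them. In that fit 38.4% of all genes were lower.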

Other observations

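Among the listed splicing regulators, several genes known for cell type-specific exons stood out by their values, and they were picked after those values were seen. Others on the same list did not stand out. Nova1, Nova2, Rbfox1, Rbfox3 and Khdrbs3 had too few counts to test, Rbfox2 lay at 0.17 (SE 0.039) and Celf2 at -0.17 (SE 0.050). A shared program of the genes picked was not tested. Srrm4, known for including microexons in neurons, had 105, 165 and 155 normalized counts in DMSO and 859, 831 and 825 after P3FI-90, 5.94-fold higher without overlap (log2 fold change 2.57, SE 0.13, adjusted p = 3.58e-10 by edgeR's quasi-likelihood test). Esrp2, which favours epithelial exons, had 2061, 2009 and 2011 and then 747, 751 and 725 (log2 fold change -1.45, SE 0.054, adjusted p = 9.45e-12), and its relative Esrp1 lay at -0.39 (SE 0.050, adjusted p = 6.02e-06). The epithelial markers were lower in the same libraries, and their part in the values of Esrp1 and Esrp2 was not tested.

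The polypyrimidine tract proteins Ptbp1 and Ptbp2, whose exchange is known from developing neurons, moved in opposite directions. Ptbp1 had 27013, 25744 and 25659 normalized counts in DMSO and 14495, 15258 and 14732 after P3FI-90 (log2 fold change -0.82, SE 0.033, adjusted p = 2.07e-11). Ptbp2 had 1283, 1377 and 1368 and then 2677, 2292 and 2617 (log2 fold change 0.91, SE 0.063, adjusted p = 7.67e-09). Gemin4, of the SMN complex, had 2893, 2835 and 2733 in DMSO and 554, 1050 and 1020 after P3FI-90, where 1 treated library lay well below the others (log2 fold change -1.69, SE 0.16, adjusted p = 2.13e-07).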
